A study of Mus musculus with 12 samples.

Results

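The 10 immediate early genes Egr1, Egr2, Fos, Fosb, Jun, Junb, Ier2, Ier3, Dusp1 and Klf2 were followed in the mouse liver line BNL CL.2 after 24 h with an iron salt, with macrophages nearby, or with both. They were taken as the probe sets that name exactly 1 of these symbols, which gave 12 of the 34958 probe sets that name a single gene, and 10 of 18194 genes. The set was selected on measured values, since Egr1 was lower with the treatments, so the values of Egr1, and those of RAW_FAC against alone for each of the 10 genes, are given as a description with no test. In RAW_FAC, cells of the mouse macrophage line RAW 264.7 sat in the culture insert and 100 micromolar ferric ammonium citrate (FAC) was added. FAC had the iron salt with further BNL CL.2 cells in the insert. RAW had RAW 264.7 cells in the insert and no added iron, and alone had further BNL CL.2 cells in the insert and no added iron. Each group has 3 Affymetrix arrays with replicate numbers 1 to 3. The cells of all groups were trypsinized first and grown in DMEM with serum.

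Immediate early genes are transcribed within minutes of a growth factor, cytokine or stress signal without new protein synthesis, mainly through the kinases ERK, JNK and p38 acting on serum response factor, its ETS partners and CREB. Their mRNAs are short-lived, so after the first burst their level in cultured cells follows the signalling that continues in the medium. Egr1 and Egr2 are zinc finger transcription factors, Fos, Fosb, Jun and Junb are subunits of the transcription factor AP-1, Ier2 and Ier3 are small response proteins, Dusp1 is a phosphatase that switches off p38 and JNK, and Klf2 is a Kruppel-like zinc finger factor. In liver, Egr1, Jun and Fos are known for their induction after injury and during regeneration. The measurements here were taken at 24 h, and earlier times were not analysed here.

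Promoter sequence shows what the members share that their choice did not use. RefSeq (GRCm38.p6) windows of the 250 bases before a transcription start were searched on both strands for TGACG, the core of the site bound by CREB and ATF factors, for TGACGTCA, the full site, which contains that core on both strands, and for the CArG box of serum response factor. Windows of 8 members were searched, 12 in all, since Egr2 has several starts, some with overlapping windows. Egr1 and Ier2 were not among these 8. TGACG was found in 8 of the 12 windows, against 17.8% of the 32851 windows of all genes. Some of the 8 are overlapping windows of Egr2. By gene, 6 of the 8 members had it, Egr2, Fos, Fosb, Junb, Dusp1 and Klf2, and no share by gene was computed for all genes. TGACGTCA was found in 1 window, that of Dusp1, against 1.55% of all windows. The CArG box was found in 4 windows, all of Egr2, against 1.47%. Some of these windows overlap and hold the same site, and by gene 1 of the 8 members had it. Bases farther upstream were not searched, so a missing match holds only for these 250 bases. The windows of Fos, Fosb and Dusp1 are shown because these are the members besides Egr1 that were lower in RAW_FAC than in alone in each same-number pair, and that of Egr2, with both motifs, because Egr2 was not. Capitals mark TGACG in either direction, TGACGTCA and the CArG box.
Fos, chr12:85473640-85473889, + strand: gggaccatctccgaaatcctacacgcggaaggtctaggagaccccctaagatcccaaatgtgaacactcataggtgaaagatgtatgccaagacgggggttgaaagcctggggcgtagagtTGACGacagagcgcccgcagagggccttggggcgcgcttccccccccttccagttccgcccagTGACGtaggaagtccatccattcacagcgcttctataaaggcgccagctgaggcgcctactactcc
Fosb, chr7:19310046-19310295, - strand: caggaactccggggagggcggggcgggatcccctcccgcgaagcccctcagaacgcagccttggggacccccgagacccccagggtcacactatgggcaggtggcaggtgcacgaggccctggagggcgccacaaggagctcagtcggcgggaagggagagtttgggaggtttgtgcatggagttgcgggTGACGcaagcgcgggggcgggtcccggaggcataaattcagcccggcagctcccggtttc
Dusp1, chr17:26508473-26508722, - strand: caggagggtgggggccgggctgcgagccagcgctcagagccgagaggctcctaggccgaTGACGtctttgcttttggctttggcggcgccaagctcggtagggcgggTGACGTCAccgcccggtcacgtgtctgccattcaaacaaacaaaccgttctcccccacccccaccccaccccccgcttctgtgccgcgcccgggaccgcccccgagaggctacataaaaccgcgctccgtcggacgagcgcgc
Egr2, chr10:67537619-67537868, + strand: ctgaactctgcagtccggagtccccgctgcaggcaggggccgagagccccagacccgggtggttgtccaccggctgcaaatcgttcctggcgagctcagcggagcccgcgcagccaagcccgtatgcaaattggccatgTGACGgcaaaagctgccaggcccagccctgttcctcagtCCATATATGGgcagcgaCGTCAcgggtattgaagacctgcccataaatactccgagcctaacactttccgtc
A match is a stretch of letters and not a measured binding site, and Fos, Fosb, Dusp1 and Egr2 all hold TGACG whatever their values below.

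Egr1, a zinc finger factor that ERK signalling induces, was the member with the widest spread between groups. Its log2 signal was 7.74, 7.53 and 7.60 in RAW_FAC replicates 1 to 3, 7.68, 7.76 and 7.86 in FAC, 8.28, 7.72 and 8.01 in RAW, and 8.51, 8.0 and 8.44 in alone. All 6 arrays with iron lay below the 3 arrays of alone, while RAW replicate 2 lay among the arrays with iron. The group means were 7.63 ± 0.11, 7.76 ± 0.09, 8.0 ± 0.28 and 8.32 ± 0.28 in the same order (SD, n = 3), so neighbouring means differed by about the spread within groups and the ends of the order by more. Throughout, a standard error (SE) comes from a limma fit over all genes without a term for the replicate number, and the SE with that term as a block is named so.

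Egr1 was lower than in alone by 0.69 ± 0.14 (SE) in RAW_FAC, which is 1.61-fold, by 0.55 ± 0.14 in FAC and by 0.31 ± 0.14 in RAW. Alone held the highest value at each of the 3 replicate numbers. Same-number differences went from -0.84 to -0.46 for RAW_FAC against alone, from -0.83 to -0.24 for FAC against alone and from -0.43 to -0.23 for RAW against alone. These comparisons share the arrays of alone. Between groups that do not share them, RAW_FAC differed from RAW by -0.38 ± 0.14, with same-number differences from -0.54 to -0.19, and RAW_FAC from FAC by -0.14 ± 0.14, with 2 of 3 pairs lower (-0.25 to 0.06). The separate differences of FAC and RAW from alone add up to -0.86, against -0.69 for both treatments together, and the difference of differences was 0.17 ± 0.20. In culture on arrays, fewer cells making a transcript and less transcript per cell cannot be told apart, which holds for each gene here.

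**Figure D1:**
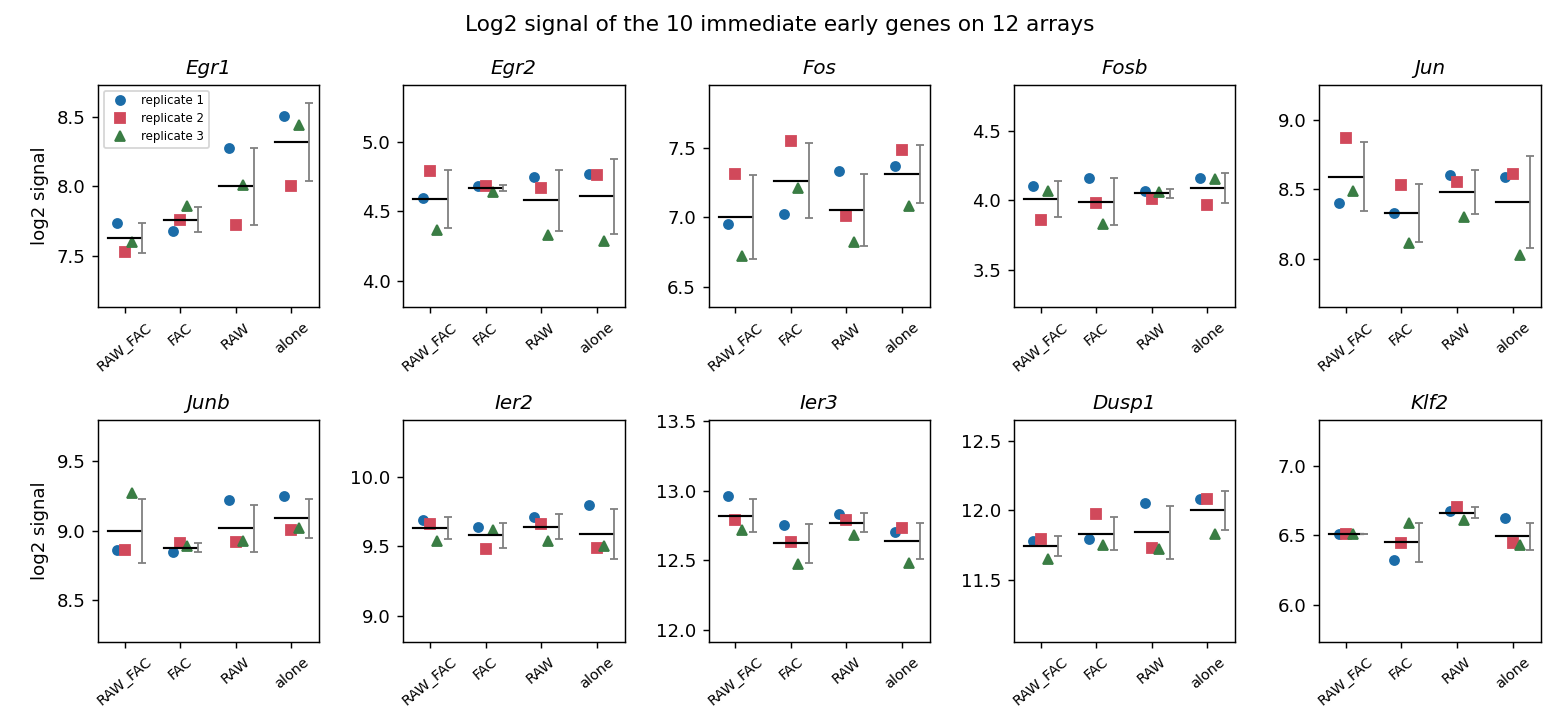
Log2 signal (vertical axes, each spanning the same width) of the 10 genes in RAW_FAC, FAC, RAW and alone (horizontal axes). Symbols are arrays by replicate number, black lines group means and grey bars ± SD of 3 arrays. Egr1 had 7.53 to 7.86 on the 6 arrays with iron and 8.0 to 8.51 on the 3 arrays of alone, and the other 9 genes overlap more between groups.

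Egr2, a related zinc finger factor that ERK signalling also induces, did not share this order. Its brighter probe set read 4.60, 4.79 and 4.37 in RAW_FAC, 4.68, 4.68 and 4.64 in FAC, 4.75, 4.67 and 4.33 in RAW and 4.77, 4.76 and 4.29 in alone. The groups overlapped, and the 3 lowest values were replicate 3 of RAW_FAC, RAW and alone. Its differences were 0.06 ± 0.14 for FAC against alone and -0.02 ± 0.14 for RAW against alone, neither past the threshold (limma adjusted p = 1.00 for each). A second probe set read between 2.96 and 3.53 and gave 0.19 for RAW against alone and -0.23 for RAW_FAC against RAW, where the first gave -0.02 and 0.0032. Both probe sets of Egr2 and that of Fosb lay under the array medians of 5.63 to 5.68 on each array, and no detection call was used, so whether these 2 genes were above background was not tested.

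Among the AP-1 subunits, Fos had 6.95, 7.31 and 6.72 in RAW_FAC, 7.02, 7.55 and 7.21 in FAC, 7.33, 7.01 and 6.82 in RAW and 7.37, 7.48 and 7.08 in alone. Both groups with macrophages had lower means, 7.0 ± 0.30 in RAW_FAC against 7.26 ± 0.27 in FAC, and 7.05 ± 0.26 in RAW against 7.31 ± 0.21 in alone (SD, n = 3), and each pair of groups overlapped. The difference was -0.26 ± 0.18 for RAW_FAC against FAC and -0.26 ± 0.18 for RAW against alone, and it was below 0 in 6 of 6 same-number pairs (-0.49 to -0.04). Averaged over both, the limma adjusted p was 1.00 without the replicate block and 0.589 with it, so the difference did not pass. With iron, Fos differed by -0.05 ± 0.18 from alone and by -0.05 ± 0.18 next to macrophages, with 3 of 6 pairs lower.

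Fosb, a close relative of Fos, read between 3.83 and 4.16 on the 12 arrays, with group means of 4.01 in RAW_FAC, 3.99 in FAC, 4.05 in RAW and 4.09 in alone. Its 4 differences of a single treatment lay between -0.10 and 0.02, and the groups overlapped in each.

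Jun, the main partner of Fos, had 8.40, 8.87 and 8.49 in RAW_FAC, 8.33, 8.53 and 8.11 in FAC, 8.60, 8.55 and 8.30 in RAW and 8.59, 8.61 and 8.03 in alone. The lowest value within FAC, RAW and alone was replicate 3, and the groups overlapped. RAW_FAC lay above FAC in 3 of 3 pairs (0.07 to 0.38), by 0.26 ± 0.17 (limma adjusted p = 1.00, and 0.860 with the block), and RAW above alone in 2 of 3 pairs, by 0.07 ± 0.17. The second probe set of Jun, between 6.90 and 7.58, gave 0.23 for RAW_FAC against FAC and 0.12 for RAW against alone, and turned the sign of RAW_FAC against RAW, to -0.08 against 0.11 for the first.

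Junb, an AP-1 subunit that often restrains Jun, read 8.86, 8.86 and 9.27 in RAW_FAC, 8.85, 8.91 and 8.89 in FAC, 9.22, 8.92 and 8.93 in RAW and 9.25, 9.01 and 9.02 in alone. The 3 FAC values lay below the 3 values of alone, by 0.21 ± 0.12 on average, which did not pass over all genes (limma adjusted p = 1.00, and 0.835 with the block). Next to macrophages the same difference with iron was -0.02 ± 0.12, and the same-number pairs ran from -0.36 for replicate 1 to 0.34 for replicate 3. The difference between these iron differences, 0.19 ± 0.16, did not pass either (limma adjusted p = 1.00).

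**Figure D2:**
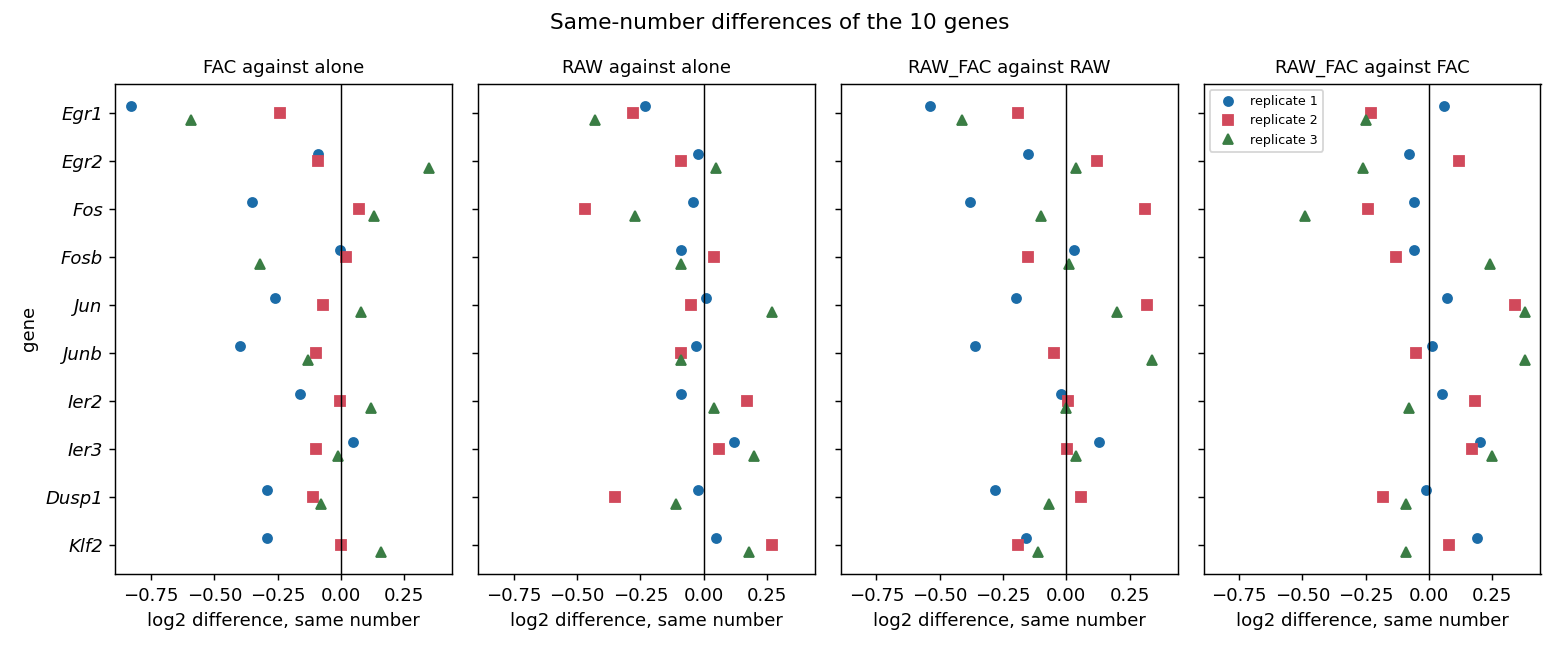
Log2 differences between arrays with the same replicate number (horizontal axes) for the 10 genes (rows) in the 4 comparisons that add 1 treatment. Each symbol is a pair of arrays, and the vertical line is 0. Egr1 lies left of 0 in 3 of 3 pairs for FAC against alone, RAW against alone and RAW_FAC against RAW, and Ier3 lies right of 0 in each pair that differs by macrophages.

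Ier3, a small response protein linked to cell survival and ERK signalling, had 12.96, 12.79 and 12.72 in RAW_FAC, 12.75, 12.63 and 12.47 in FAC, 12.83, 12.79 and 12.68 in RAW and 12.70, 12.73 and 12.48 in alone. It was higher with macrophages in 6 of 6 same-number pairs, by 0.17 to 0.25 between RAW_FAC and FAC and by 0.06 to 0.20 between RAW and alone, although the groups overlapped. The mean differences were 0.21 ± 0.09 (0.06 with the block) and 0.13 ± 0.09 (0.06 with the block). Averaged over both, the difference was 0.17 ± 0.07, with a limma adjusted p of 1.00, and of 0.322 with the block, so it did not pass in either fit. With iron the differences were -0.02 ± 0.09 for FAC against alone and 0.06 ± 0.09 for RAW_FAC against RAW.

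Ier2, a nuclear response protein induced with Fos and Jun, stayed between 9.48 and 9.80 on the 12 arrays. Group means were 9.63 ± 0.08 in RAW_FAC, 9.58 ± 0.09 in FAC, 9.64 ± 0.09 in RAW and 9.59 ± 0.18 in alone (SD, n = 3). Its 4 differences of a single treatment lay between -0.01 and 0.05, each smaller than its SE of 0.09.

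Dusp1, the phosphatase that dampens p38 and JNK signals, read 11.78, 11.79 and 11.65 in RAW_FAC, 11.79, 11.97 and 11.75 in FAC, 12.05, 11.73 and 11.72 in RAW and 12.08, 12.08 and 11.83 in alone. Alone held the highest value at replicate numbers 1, 2 and 3, and the 3 values of RAW_FAC lay below those of alone, on average by 0.26. With macrophages Dusp1 was lower in 6 of 6 same-number pairs, but these ran from -0.35 to -0.01, and the averaged difference of -0.13 ± 0.07 did not pass (limma adjusted p = 1.00, and 0.714 with the block). With iron it was lower in 5 of 6 pairs (-0.29 to 0.06), and averaged -0.13 ± 0.07 (limma adjusted p = 0.804, and 0.405 with the block).

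Klf2, a factor that statins and fluid flow induce in blood vessels, read 6.51 on each RAW_FAC array, 6.32, 6.44 and 6.59 in FAC, 6.67, 6.70 and 6.61 in RAW and 6.62, 6.44 and 6.43 in alone. RAW was the highest group, above alone by 0.17 ± 0.08 in 3 of 3 pairs (0.05 to 0.27). The RAW_FAC values lay below the 3 RAW values, by 0.15 ± 0.08. Neither difference passed (limma adjusted p = 1.00 and 0.849, and 0.824 and 0.504 with the block).

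Counts over the 10 members, here and by same-number pairs below, include Egr1, which was picked for being lower. They are a description and give no support for a fall of the set. Across the group, iron without macrophages left 9 of 10 members below 0 and 1 above, where 52.2% of all genes lay below 0. The median over members was -0.07, or -0.05 without Egr1, against -0.0043 over all genes. In 2 of the 10, Egr1 and Junb, the FAC arrays did not overlap with alone and were lower, which held for 3.82% of all genes, while 3.74% were higher without overlap. For RAW against alone 6 members lay below 0, with a median of -0.03, and in 0 of 10 the groups did not overlap, where 3.60% of all genes were lower and 5.16% higher without overlap. RAW_FAC against RAW had 7 below 0, a median of -0.03 and 1 separated member, Klf2, which was lower, as were 5.26% of all genes, while 4.48% were higher. RAW_FAC against FAC had 4 below 0, a median of 0.03 and 0 separated members, where 3.02% of all genes were lower and 3.62% higher without overlap. In RAW_FAC against alone, from which the group was picked, 6 lay below 0, the median was -0.05 and 2 were separated and lower, Egr1 and Dusp1, as were 4.36% of all genes, while 4.66% were higher.

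By same-number pairs, FAC lay below alone in 3 of 3 for 3 of 10 members, Egr1, Junb and Dusp1, and above for 0, where 14.8% of all genes were lower and 13.4% higher. RAW lay below alone in each pair for 4 members, Egr1, Fos, Junb and Dusp1, and above for 2, Ier3 and Klf2, where 16.3% and 14.9% of all genes did. RAW_FAC lay below RAW for 2, Egr1 and Klf2, and above for 1, Ier3, where 15.3% and 15.1% did. RAW_FAC lay below FAC for 2, Fos and Dusp1, and above for 2, Jun and Ier3, where 11.4% and 16.2% did. RAW_FAC lay below alone for 4, Egr1, Fos, Fosb and Dusp1, and above for 1, Ier3, where 14.6% and 15.4% did.

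Tested over all 18194 genes, 0 of the 9 members other than Egr1 passed in FAC against alone, RAW against alone, RAW_FAC against RAW, RAW_FAC against FAC or the interaction, in limma with or without the replicate block. The block is relevant because the replicate numbers were taken to pair the arrays, from correlated residuals and not from the labels. The background was also small: without the block 0% of all genes passed in each of these in either direction, and with it 0.0220% were higher and 0.0110% lower in FAC against alone, 0.0605% higher and 0.0165% lower in RAW_FAC against RAW, and 0% in RAW against alone, RAW_FAC against FAC and the interaction. Unadjusted, limma without the block gave a p under 0.05 to 0, 1, 0, 1 and 0 of the 9, in the order named, against 3.03%, 3.81%, 5.71%, 3.15% and 2.97% of all genes. With the block it gave 0, 1, 0, 2 and 0, against 6.57%, 6.13%, 11.2%, 5.61% and 4.34% of all genes. In the averages over both arms, 0 of the 9 passed with iron, where 0% of all genes were higher and 0.00550% lower, or 0.638% and 0.154% with the block. With macrophages 0 of the 9 passed too, where 0.0110% of all genes were higher and 0% lower, or 0.0550% and 0% with the block. For iron on average, 0 of the 9 had an unadjusted limma p under 0.05 without the block and 1 with it, against 6.51% and 12.3% of all genes. For macrophages on average, 1 had one without the block and 3 with it, against 3.94% and 7.0% of all genes.

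Over the 9 members other than Egr1, the 95% limma intervals spanned -0.46 to 0.37 for FAC against alone, -0.64 to 0.43 for RAW against alone, -0.43 to 0.47 for RAW_FAC against RAW and -0.64 to 0.62 for RAW_FAC against FAC. With the block the averaged differences had intervals within -0.30 to 0.18 for iron and within -0.47 to 0.34 for macrophages. These limits are the outermost over the 9 genes, and single genes had narrower intervals. In all 6 same-number pairs that differ by macrophages, 1 of 10 members, Ier3, was higher, where 3.09% of all genes were, and 2, Fos and Dusp1, were lower, where 2.80% were.

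Several members differed more between replicate numbers than between groups. The means of replicates 1, 2 and 3 over the 4 groups were 8.48, 8.64 and 8.23 for Jun, 4.70, 4.72 and 4.41 for Egr2 and 12.81, 12.73 and 12.59 for Ier3. Replicate 3 was thus the lowest for these genes, and also for Fos, with 7.17, 7.34 and 6.96, for Ier2, with 9.71, 9.57 and 9.55, and for Dusp1, with 11.92, 11.89 and 11.74. In Egr1 replicate 2 was the lowest instead, with 8.05, 7.75 and 7.98, and Klf2 hardly differed, with 6.53, 6.52 and 6.54.

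In a limma F test of the replicate number beside the group, 3 of 10 members passed over all genes, Ier3 (adjusted p = 0.0351), Egr2 (adjusted p = 0.0376) and Jun (adjusted p = 0.0408), where 10.6% of all genes did. The replicate number took 70.2% of the sum of squares over the 12 arrays for Egr2, 56.6% for Jun, 54.9% for Ier2 and 48.6% for Ier3, with a median of 40.7% over the 10 members and of 26.9% over all genes. The group took 70.3% for Egr1, 54.6% for Klf2, 43.5% for Ier3 and 3.7% for Egr2, with a median of 26.4% over the members and of 22.6% over all genes. Egr1 was picked for being lower with the treatments, so its group share is a description, and the median over the members includes it. The second probe sets of Jun and Egr2 did not pass this test (limma adjusted p = 0.113 and 0.578). When each of the 12 arrays was left out in turn, with fewer arrays in the fit, Jun passed in 4 fits, Egr2 in 3 and Ier3 in 2, and their adjusted p went up to 0.119, 0.139 and 0.121. What the numbers stand for is not said in the labels, so the source of this spread was not tested.

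**Figure D3:**
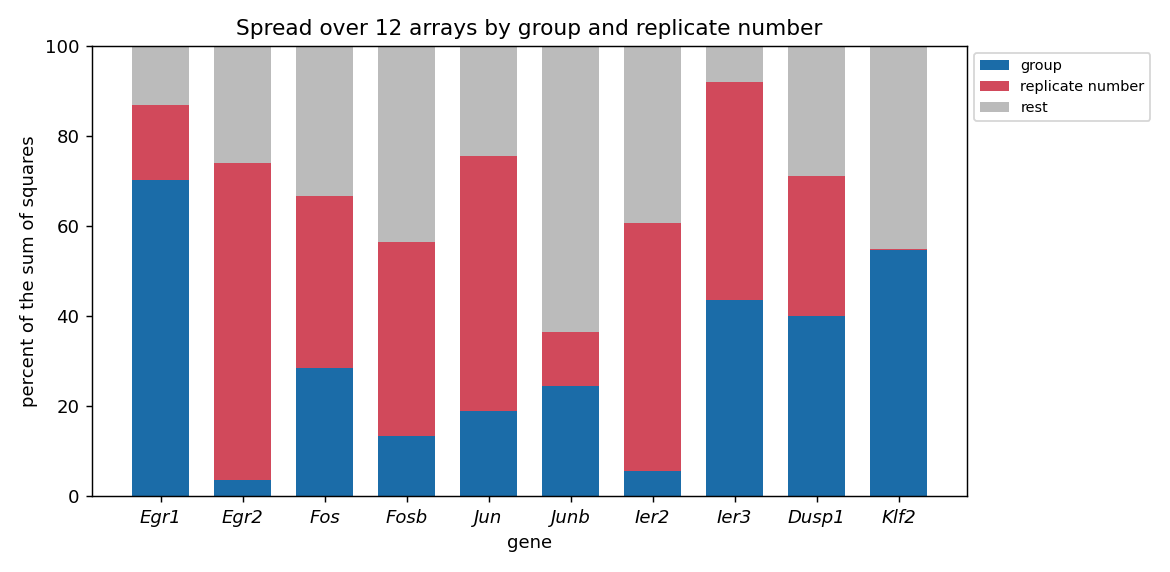
Share of each gene's sum of squares over 12 arrays (vertical axis, percent) that goes with the group, with the replicate number and with neither, stacked for the 10 genes. The group takes the largest share in Egr1, Klf2 and Dusp1, and the replicate number in Egr2, Fos, Jun, Ier2 and Ier3. Egr1 was picked for being lower with the treatments.

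Other genes were ranked by how closely their 12 values, each gene centred on its mean, followed Egr1. The measure was the root mean square difference over the arrays, whose median over 18193 genes was 0.329 and which is 0.312 for a gene that does not vary. The 5 nearest genes were Frat2 (0.164), whose protein binds the kinase GSK3, Inka2 (0.170), which encodes an inhibitor of the kinase PAK4, Cyb561a3 (0.182), a cytochrome of the b561 family of transmembrane reductases, Ier5l (0.188), a relative of the response gene Ier5, and Ripk4 (0.190), a kinase of epithelial cells. They were picked for likeness to Egr1, so their values are a description. Ier5l had 7.52, 7.64 and 7.72 in RAW_FAC, 7.69, 7.65 and 7.65 in FAC, 8.03, 7.70 and 7.86 in RAW and 8.09, 7.89 and 7.91 in alone. Its arrays with iron lay below those of alone, as for Egr1, but the distance between RAW_FAC and alone was -0.33 against -0.69. Among the members, Dusp1 was nearest to Egr1 at 0.254, rank 350 of 18193, Junb followed at 0.267, rank 708, and Jun was the farthest at 0.432, rank 17666.

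**Figure D4:**
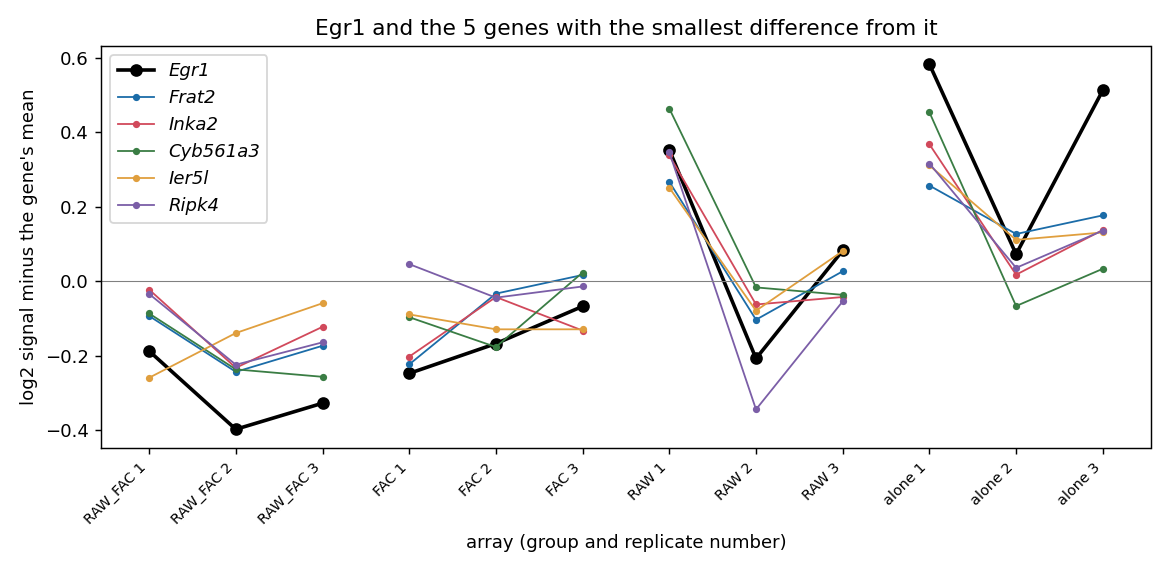
Log2 signal minus the gene's own mean (vertical axis) on the 12 arrays (horizontal axis) for Egr1 and the 5 genes with the smallest root mean square difference from it. Lines join arrays of 1 group. The 5 genes lie 0.164 to 0.190 from Egr1, share its high values in RAW replicate 1 and alone replicate 1, and span less than Egr1.

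Other genes of the same response were read from lists. Of 32 other immediate early genes, among them Atf3, Myc, the Nr4a factors and Fosl1, 0 passed in each of the comparisons above, with or without the block. Their medians were -0.05 for FAC against alone (24 of 32 below 0), -0.01 for RAW against alone, 0.03 for RAW_FAC against RAW and 0.04 for RAW_FAC against FAC, where the medians of all genes lay between -0.0043 and 0.01. The 2 with the largest mean change were Klf10, a factor that TGF-beta induces, and Nr4a2, an orphan nuclear receptor. Klf10 had 9.75, 9.94 and 9.73 in RAW_FAC, 9.91, 10.13 and 9.97 in FAC, 10.24, 10.08 and 10.01 in RAW and 10.22, 10.36 and 10.04 in alone, lowest in RAW_FAC as Egr1 was. Its differences were -0.20 ± 0.10 for FAC against alone and -0.30 ± 0.10 for RAW_FAC against RAW (limma adjusted p = 1.00 and 0.849). Nr4a2 was higher with iron by 0.16 ± 0.10 without and 0.23 ± 0.10 with macrophages, and lower with macrophages by -0.22 ± 0.10 without and -0.15 ± 0.10 with iron, none past the threshold (limma adjusted p of 0.849 to 1.00).

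In further lists, 0 of 14 feedback inhibitors of the ERK pathway and 0 of 19 growth factor ligands and receptors passed in those comparisons, with or without the block. Likewise 0 of 15 Ras-ERK kinases and SRF factors, 0 of 12 JNK and p38 kinases and 0 of 10 factors of AU-rich mRNA decay passed. For iron on average, 11 of 14, 13 of 19, 7 of 15, 3 of 12 and 8 of 10 lay below 0, in that order. Of all genes 51.1% did, and whether the shares differ was not tested. Spry2, a feedback inhibitor whose level follows ERK activity, differed by -0.16 ± 0.30 for FAC against alone and by -0.24 ± 0.30 for RAW_FAC against RAW. Its values differed more by replicate number, with 9.49, 8.77 and 8.50 in RAW_FAC and 9.53, 9.19 and 8.70 in alone. Egfr, the epidermal growth factor receptor, differed by -0.23 ± 0.16 and -0.14 ± 0.16 in the same comparisons. Pdgfra, with the largest mean change in the list of Egfr but under the array medians, differed by 0.14 ± 0.08 and -0.20 ± 0.08. With macrophages Pdgfra differed by 0.25 ± 0.08 for RAW against alone and by -0.09 ± 0.08 for RAW_FAC against FAC. Nab2, a corepressor that binds EGR proteins and is itself induced by Egr1, had 6.99, 7.28 and 7.22 in RAW_FAC, 6.94, 6.89 and 6.83 in FAC, 7.13, 7.18 and 7.09 in RAW and 7.07, 7.07 and 7.05 in alone. Its FAC values lay below those of alone, by 0.18 ± 0.07, while RAW_FAC differed from RAW by 0.03 ± 0.07 and from FAC by 0.27 ± 0.07, and none of these passed (limma adjusted p of 0.972 to 1.00). Zfp36, which speeds the decay of AU-rich mRNAs, differed by 0.11 ± 0.09 and 0.14 ± 0.09 with iron. Its relative Zfp36l1, with the largest mean change in that list, differed by -0.07 ± 0.12 and 0.02 ± 0.12 with iron. With macrophages Zfp36l1 differed by 0.11 ± 0.12 for RAW against alone and by 0.20 ± 0.12 for RAW_FAC against FAC. The other Kruppel-like factors, 13 genes, had a median of -0.06 for RAW against alone, with 12 below 0, where Klf2 was above, and 0 passed.

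Facts of the whole series bear on these values as follows. Tfrc, the transferrin receptor gene that iron lowers, read 11.46 to 12.35 on the 6 arrays with iron, against 13.07 to 13.40 without. Even so, Tfrc did not pass without the block in FAC against alone or RAW_FAC against RAW, where 0% of all genes passed. Macrophage markers gave array means of 5.84 to 5.89 on the 6 arrays with macrophages, against 5.75 to 5.91 without, and 0 of the 10 passed in any comparison, with or without the block. Ptprc, at 3.32 to 3.72, Itgam, at 3.49 to 3.98, Tyrobp, at 4.35 to 4.68, and Adgre1, at 4.74 to 5.21, read under the array medians of 5.63 to 5.68 on each array, while Csf1r, at 6.23 to 6.58, Laptm5, at 6.75 to 7.0, and Cd14, at 11.90 to 12.19, read above them. Of the liver markers, the epithelial keratins Krt8 and Krt18 read 13.99 to 14.34 and Hnf4a 10.22 to 10.75, but Alb lay at 5.02 to 5.38, under the array medians. Afp, a gene of fetal liver, was higher with iron on average with the block, by 0.45 ± 0.07 (limma adjusted p = 0.0168), and did not pass without it. It was the 1 of 8 measured liver markers that passed, it moved with the contrast in which Egr1 was lower, and its part in the difference of Egr1 was not tested. Of the 10 mesenchymal markers, Vim, S100a4 and Sparc were bright, while Col1a1, Col1a2, Col3a1, Pdgfrb and Thy1 read under the array medians on each array. Array means over all 10 were 7.79 to 7.91 with iron, against 7.89 to 7.95 without. In FAC against alone, where 52.2% of all genes lay below 0, 9 of these 10 markers did, as did Egr1. Their part in the difference of Egr1 was not tested. The difference between the 3' and 5' probe sets of beta-actin, a sign of RNA integrity, was 0.32 to 0.42 over the 12 arrays with no order by group, and that of Gapdh was 0.06 to 0.11 in replicate 3 and -0.05 to 0.01 in replicates 1 and 2, so it moved with the replicate number as Jun, Egr2 and Ier3 did, and its part in their spread was not tested.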

How the data were processed

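RNA of 12 samples, 3 per group, was measured on Affymetrix mouse arrays. The authors deposited a log2 signal per probe set; the submitters' processing notes name affy and RMA, without versions. Values ran from 2.42 to 14.6 and no scaling was added. Of 45101 probe sets, 34958 named 1 gene, 932 several and 9211 none; the last kinds were left out. Each gene was read from its probe set with the highest mean.

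Group means were fitted to 18194 genes with limma 3.58.1 in R 4.3.3 (4.90 prior degrees of freedom, 4.48 with the block), with Benjamini-Hochberg adjusted p under 0.05, two-sided, over all genes. Tables and plots used Python 3.11.15. Residuals of arrays with equal replicate numbers correlated at 0.26 to 0.53 over 18 pairs (different numbers, -0.35 to -0.01), so the numbers were taken to pair the arrays and were fitted as a block as an alternative. Residuals sum to 0 within a group, so the values for different numbers fall below 0 on average where equal numbers correlate. No label calls the replicates separate cultures, so the p values reflect only how these samples vary, which may be technical, and the number of arrays limits the precision. On simulated data for FAC against alone (18194 genes), 50 genes each were changed by 0.5, 1, 2 or 4. A change of 0.5 was recovered for 62% without the block and 70% with it, and a change of 1 for 96% in both. False calls numbered 3 without the block and 13 with it. In the measured comparison 0 genes passed without the block. Tfrc, with means of 11.98 in FAC and 13.23 in alone, was thus missed there. With fewer changed genes the adjusted threshold is stricter, so these shares may not hold for the measured data.

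The members, lists and tests were chosen with earlier results of these data known. Named are the 10 members, of each list the genes past the threshold or else those with the largest mean change over the 4 comparisons of 1 treatment, the 5 genes nearest to Egr1, and the cell type markers; from the lists, only some of these are printed. Promoter windows are RefSeq's, GRCm38.p6. Alternatives were the block, other probe sets, centring, quantile normalization, a filter on dim genes, array weights, fits to the compared groups and leaving out each array.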

Additional observations from a re-analysis of the deposited data

How the results depend on the processing

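No difference of the 9 members other than Egr1 passed the limma test under the other settings run, with or without the block, and the block changed no other call of a member. Signs turned as follows, all in differences that did not pass. With the probe set with the lowest mean the value was -0.0017 for Egr2 in FAC against alone, 0.19 for Egr2 in RAW against alone, -0.23 for Egr2 and -0.08 for Jun in RAW_FAC against RAW, -0.11 for Egr2 and -0.13 for Jun in the average over iron and 0.08 for Egr2 in the average over macrophages. With array weights the value was 0.01 for Fos in FAC against alone, 0.07 for Fos and 0.03 for Ier2 in RAW_FAC against RAW, 0.05 for Egr2 and 0.06 for Fos in the interaction, 0.04 for Fos and 0.01 for Ier2 in the average over iron and -0.01 for Junb in the average over macrophages. With quantile normalization the value was 0.0019 for Ier2 in FAC against alone and -0.04 for Ier2 in the interaction. With the mean of the probe sets the value was 0.08 for Egr2 in RAW against alone, -0.11 for Egr2 in RAW_FAC against RAW, -0.04 for Egr2 and -0.06 for Jun in the average over iron and 0.01 for Egr2 in the average over macrophages. With median centring the value was 0.01 for Ier2 in RAW_FAC against RAW and 0.02 for Fos in the interaction. 

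With 1 array left out, with or without the block, differences took both signs in the following. In FAC against alone they spanned -0.10 to 0.14 for Egr2, -0.20 to 0.12 for Fos, -0.19 to 0.0016 for Fosb, -0.28 to 0.02 for Jun, -0.08 to 0.09 for Ier2, -0.10 to 0.05 for Ier3 and -0.13 to 0.04 for Klf2. In RAW against alone they spanned -0.18 to 0.10 for Egr2, -0.12 to 0.18 for Jun, -0.17 to 0.01 for Junb and -0.01 to 0.14 for Ier2. In RAW_FAC against RAW they spanned -0.12 to 0.11 for Egr2, -0.21 to 0.12 for Fos, -0.08 to 0.04 for Fosb, -0.04 to 0.25 for Jun, -0.19 to 0.10 for Junb, -0.05 to 0.04 for Ier2, -0.01 to 0.11 for Ier3 and -0.19 to 0.01 for Dusp1. In RAW_FAC against FAC they spanned -0.18 to 0.04 for Egr2, -0.08 to 0.10 for Fosb, -0.05 to 0.24 for Junb and -0.03 to 0.15 for Klf2. In the interaction they spanned -0.18 to 0.10 for Egr2, -0.17 to 0.17 for Fos, -0.04 to 0.15 for Fosb, -0.09 to 0.08 for Ier2 and -0.03 to 0.18 for Dusp1. In the average over iron they spanned -0.05 to 0.08 for Egr2, -0.13 to 0.03 for Fos, -0.08 to 0.08 for Jun, -0.04 to 0.04 for Ier2 and -0.02 to 0.06 for Ier3. In the average over macrophages they spanned -0.13 to 0.01 for Egr2, -0.07 to 0.03 for Fosb and -0.06 to 0.08 for Junb. In RAW_FAC against alone, given with no test, they spanned -0.18 to 0.09 for Egr2, -0.01 to 0.32 for Jun, -0.26 to 0.03 for Junb, -0.02 to 0.14 for Ier2 and -0.03 to 0.10 for Klf2, and Egr2 there was 0.03 with array weights. The Egr1 difference kept its sign without any 1 array in FAC against alone, where it spanned -0.71 to -0.41, in RAW against alone (-0.47 to -0.17), in RAW_FAC against RAW (-0.52 to -0.24) and in RAW_FAC against alone (-0.85 to -0.59). Egr1 was picked for being lower, so its spans are a description and give no support for its fall.

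With the replicate block, limma called 4 genes higher and 2 lower in FAC against alone, 11 and 3 in RAW_FAC against RAW, 26 and 11 in RAW_FAC against alone, 116 and 28 for iron on average, and 10 higher for macrophages on average. Without it, 1 gene was lower for iron on average, 0 with the probe set with the lowest mean or the mean of the probe sets, and 1 was higher with median centring, with dim genes left out and with array weights. For macrophages on average 2 genes were higher, and 1 with the probe set with the lowest mean. With 1 array left out, with or without the block, the genes higher and lower numbered 0 to 3 and 0 to 1 in FAC against alone, and 0 to 15 and 0 to 5 in RAW_FAC against RAW. They numbered 0 to 29 and 0 to 14 in RAW_FAC against alone, and 0 to 24 and 0 to 4 for macrophages on average. For iron on average they numbered 37 to 88 and 7 to 23 with the block, and 0 to 1 for each without it. The genes higher were 0 to 2 in RAW against alone and 0 to 3 in RAW_FAC against FAC. The members past the replicate number test were 3, but 0 with the probe set with the lowest mean and 0 to 2 with 1 array left out, a setting chosen after seeing the data. The cause of these shifts was not tested, beyond fewer arrays in the fits that leave one out. The interaction and averages were not fitted to the compared groups alone, and the dim filter dropped Egr2, Fosb and Klf2. The 3 arrays per group limit the precision.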
